A study of Mus musculus with 28 samples.

Results

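The 35 genes described here encode the carriers and enzymes that move glucose through glycolysis and the pentose phosphate pathway and decide whether pyruvate leaves as lactate or enters the mitochondrial pyruvate dehydrogenase reaction. They were taken by name from the deposited count tables, and all 35 were present among the 43253 features used. In the order of the pathway they are the glucose carriers Slc2a1 and Slc2a3 and the lactate carriers Slc16a1 and Slc16a3. Upper glycolysis follows with Hk1, Hk2, Gpi1, Pfkl, Pfkm, Pfkp, Aldoa, Aldoc and Tpi1. Lower glycolysis is represented by Gapdh, Pgk1, Pgam1, Eno1, Eno2 and Pkm. The fate of pyruvate is represented by Ldha, Ldhb, Pdk1, Pdk2, Pdha1 and Pdhb, and the control metabolite fructose 2,6-bisphosphate by its enzymes Pfkfb1, Pfkfb2, Pfkfb3 and Pfkfb4. G6pdx, Pgd, Tkt and Taldo1 form the pentose phosphate pathway, and the names Pgm1 and Pgm2 stand for phosphoglucomutases.

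Most of these steps can be carried out by several paralogs with different kinetics, so a cell can change its glucose handling by exchanging one paralog for another. Phosphofructokinase is the main control point of glycolysis, and the bifunctional PFKFB enzymes set it by making or breaking fructose 2,6-bisphosphate. The PDK kinases switch off pyruvate dehydrogenase and so hold pyruvate back for lactate. In the testis, Sertoli cells are known to pass lactate to germ cells, and spermatids use testis-specific versions of several glycolytic enzymes.

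The libraries came from germ cells sorted from mouse testis for the fluorescent reporter PIWIL2-eGFP, from Stra8 knockout (KO) and wild-type (WT) animals. Their strain came from C57BL/6 x 129s4/SvJae. Stra8 is a retinoic acid target that germ cells need for meiosis. All animals of both genotypes had received WIN 18,446, an inhibitor of retinoic acid synthesis, for 7 days, so the 0 h groups are drug-treated and not untreated cells. The other groups then had an injection of retinoic acid and were sampled after 12, 18, 48, 72, 96 or 120 h, which gave 14 groups of 2 libraries each. The labels give neither the ages of the mice, nor which part of Stra8 was deleted, nor whether the libraries of a group came from separate animals, so p-values measure only the spread between libraries, which may be technical.

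Polyadenylated RNA was sequenced, and the deposited read counts summed to between 913055 and 9507928 per library in KO and between 5752475 and 10135820 in WT. Levels are given as CPM, the count divided by the library's total and multiplied by 1000000. Stra8 itself lay between 0 and 62.2 CPM in KO libraries, the highest being replicate 1 at 48 h, and between 7.66 and 1043 CPM in WT libraries. The germ cell marker Ddx4 lay between 336 and 563 CPM in KO libraries and between 296 and 597 CPM in WT libraries. Of 6 germ cell markers, Gfra1, Piwil2 and Zbtb16 were called higher and Dazl and Kit lower in KO on the mean over times, while Ddx4 was not called. Their summed level ran from 3862 to 5458 CPM in KO libraries and from 2786 to 5447 CPM in WT libraries. The summed level of 9 Sertoli cell markers was 57.9 to 868 CPM in KO libraries and 38.4 to 233 CPM in WT libraries, highest in KO replicate 2 at 72 h. Of the 9, 5 were called higher in KO over the whole course. Summed markers of 6 Leydig cell genes reached at most 15.8 CPM in KO and 9.18 CPM in WT, and Insl3 was at 0 in every library. Summed markers of 3 peritubular myoid genes lay at 18.2 to 48.2 CPM in KO libraries and 6.36 to 26.6 CPM in WT libraries, and those of 3 endothelial genes at 9.86 to 32.2 CPM in KO and 6.85 to 37.3 CPM in WT. On the mean over times Myh11 of the first list and Pecam1 of the second were called higher in KO. Erythroid, spermatid, and macrophage and leukocyte markers, 5 genes each, summed to at most 6.52 CPM in any library. The 35 members together took 0.256 to 0.460% of the reads of a KO library and 0.238 to 0.422% of a WT library.

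The 7 WT replicate 1 libraries stood apart in the share of mitochondrial reads, at 1.98 to 3.06%, against 3.21 to 6.79% in WT replicate 2 and 4.56 to 8.56% in KO libraries. KO replicate 2 at 72, 96 and 120 h stood apart from all other libraries in depth, with totals of 1078460, 913055 and 1030025 reads, and among the members it differed from its partner library in a particular set of genes. Gapdh, the enzyme that oxidizes glyceraldehyde 3-phosphate, was at 388 and 30.6 CPM (72 h), 434 and 27.4 (96 h), and 274 and 32 (120 h) in KO, replicate 1 first, against 427 and 354 CPM (72 h), 515 and 346 (96 h), and 463 and 413 (120 h) in WT. Pgam1, phosphoglycerate mutase, was at 72.5 and 1.85 CPM (72 h), 82 and 2.19 (96 h), and 40.8 and 1.94 (120 h) in KO, against 89.3 and 66.4 CPM (72 h), 84.2 and 36.2 (96 h), and 54.5 and 37.7 (120 h) in WT. In both genes the low KO value belonged to the shallow library at each of these times. Members were therefore matched to annotated mouse pseudogene transcripts at 90% identity or more over at least 150 bases. Of the 7 members with 3 or more such copies (Aldoa, Gapdh, Pgk1, Pgam1, Eno1, Pkm and Ldha), 6 lay below 0.5 of the partner library's CPM at all 3 times, against 1 (Pdhb) of the 25 tested members with fewer copies. The ratio of the shallow library to its partner was 0.0632 to 0.117 for Gapdh (172 copies), 0.0256 to 0.0475 for Pgam1 (3), 0.10 to 0.154 for Pgk1 (4), 0.117 to 0.263 for Eno1 (6), 0.265 to 0.304 for Ldha (14) and 0.406 to 0.453 for Pkm (8). For Aldoa (5) it was 0.553 to 0.706. The ratio did not follow the number of copies. The share of all genes below 0.5 of the partner was not counted, and the part of the copies in these low values was not tested.

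A CPM table deposited beside the counts matches 25 of the 28 count columns within 0.001 CPM. Its 3 other columns carry the same KO times but other values, and they resolve into whole reads with totals of 4479729, 4190650 and 4122223. With those recovered reads in place of the shallow libraries, Gapdh had 0.504 to 0.826 of the partner's CPM, Pgam1 0.449 to 0.791, Pgk1 0.628 to 0.983 and Eno1 0.510 to 0.757. Pkm had 0.824 to 0.922 of it, while Ldha stayed low with 0.311 to 0.657. Why the columns differ was not tested. Results that involve KO at 72, 96 or 120 h are therefore given from the count tables and, where the value moves, also without the shallow libraries and with the recovered reads. Levels of the members with pseudogene copies are uncertain in every library, since reads shared with a copy may be lost or split.

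**Figure D1:**
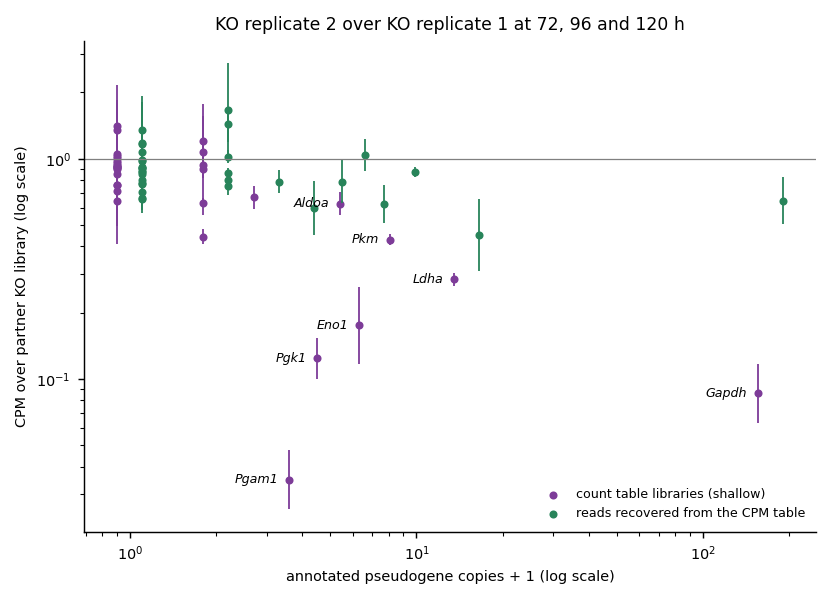
CPM in KO replicate 2 at 72, 96 and 120 h divided by CPM in KO replicate 1 (log scale), against the number of annotated pseudogene copies plus 1 (log scale), for each member with both values; points are the geometric middle and bars the range over the 3 times, for the shallow count-table libraries (drawn slightly left of their number) and for the reads recovered from the CPM table (slightly right). Gapdh, Pgam1, Pgk1 and Eno1 sit lowest in the shallow libraries, and Gapdh lies between 0.504 and 0.826 with the recovered reads.

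Levels between genes can be compared only per length of transcript. At 0 h (means of 2 libraries) the highest member per kilobase of annotated exon was Gpi1, glucose 6-phosphate isomerase, at 148 CPM per kb in KO and 118 CPM per kb in WT. Next came Pkm, pyruvate kinase, at 124 CPM per kb in KO and 110.5 CPM per kb in WT. The pentose phosphate enzyme Taldo1, transaldolase, followed at 97 CPM per kb in KO and 104 CPM per kb in WT. Gapdh, with 172 pseudogene copies, was at 73.6 CPM per kb in KO and 98.4 CPM per kb in WT. The length joins all annotated exons of a gene, and reads may be lost to pseudogene copies. This order therefore need not be that of transcript levels. Among phosphofructokinases, Pfkm was above Pfkp, with 17.7 against 4.12 CPM per kb in KO and 13.4 against 3.71 CPM per kb in WT. Pfkl was lowest of the 3 at 1.80 CPM per kb in KO and 1.02 CPM per kb in WT. Eno2, the neuronal enolase, had 0 to 1.38 CPM in KO libraries and 0 to 1.37 CPM in WT libraries. It was the member that did not pass the filter on low counts, so tests cover 34 members of 17519 genes tested.

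Averaged over the 7 times, KO cells had more transcript of many genes of the pathway than WT cells. Of the 34 members, 20 were higher and 2 were lower in KO (quasi-likelihood test of edgeR, p adjusted by Benjamini and Hochberg over all genes tested, threshold 0.05), while 12 did not pass. Among all genes tested, 37.5% were called in this comparison, 17.4% higher and 20.1% lower. The median log2 fold change of KO over WT was 0.33 over the members and -0.02 over all genes tested. Without the 3 shallow libraries, where Eno2 also passed the filter, 24 members were called, 21 higher and 3 lower, where 34.6% of all genes were called. With the recovered reads 24 members were called, again 21 higher and 3 lower, where 42.6% of all genes were called. At 0 h, before retinoic acid, no member was called by edgeR, 1 had an unadjusted p under 0.05, DESeq2 also called 0, and 0% of all genes were called. Without the 7 WT replicate 1 libraries, which leaves 1 WT library at each time that is assumed to vary like the KO groups, 15 members were called, 14 higher and 1 lower, where 27% of all genes were called. These 15 were all among the 22. The 7 no longer called were Aldoc, Eno1, Ldha, Pgk1, Pgm1, Pkm and Slc16a3 (edgeR adjusted p between 0.0562 and 0.393). The part of the mitochondrial share in the difference was not tested. In these bulk samples fewer cells of a type and less RNA per cell cannot be told apart.

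**Figure D2:**
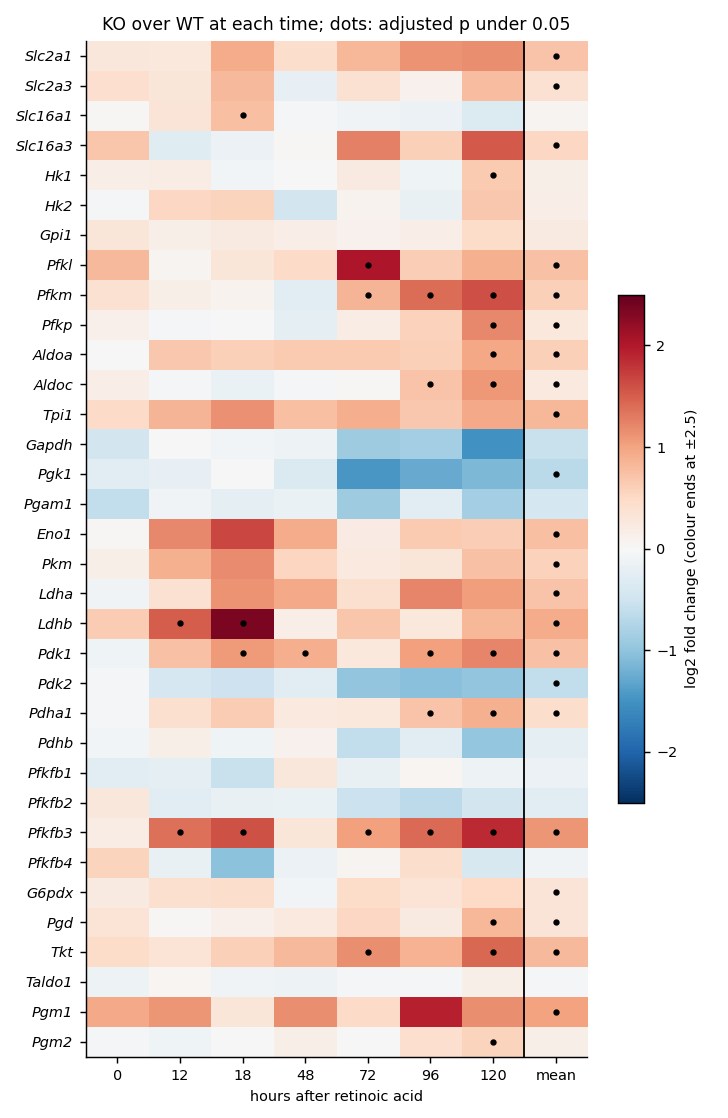
Log2 fold change of KO over WT for the 34 members tested (rows, in pathway order) at each time after retinoic acid (hours) and for the mean over the 7 times (last column); red is higher in KO, blue lower in KO, and a dot marks an adjusted p under 0.05. Pfkfb3, Pdk1, Pfkm and Tkt are red with dots at late times, the column at 0 h has no dot, and Pdk2 and Pgk1 carry the blue dots of the mean.

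Single times gave 27 calls of members, all of them higher in KO. They numbered 2 at 12 h, 4 at 18 h, 1 at 48 h, 4 at 72 h, 5 at 96 h and 11 at 120 h, where 1.18%, 4.14%, 0.308%, 4.7%, 4.47% and 15.4% of all genes were called. At 120 h the members' share was 11 of 34, against 8.54% of all genes called higher. The 27 calls became 15 without KO replicate 1 at 120 h, 35 without the 3 shallow libraries and 51 with the recovered reads. The 120 h count was 14 without the shallow libraries, with 11% of all genes called, and 21 with the recovered reads, of which 20 were higher and 1 lower, with 19.3% of all genes called. Without the 7 WT replicate 1 libraries the 27 calls became 23, of which 18 were among the 27. The 9 lost were Ldhb at 12 h, Slc16a1 at 18 h, Pdk1 at 48 h, Pfkm at 72 h, Aldoc and Pdha1 at 96 h, and Aldoa, Hk1 and Pgm2 at 120 h (edgeR adjusted p between 0.0542 and 0.26), and 2 of those gained were lower in KO, both of Pdk2.

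The summed Sertoli level was 234 and 868 CPM at 72 h, 158 and 265 CPM at 96 h and 261 and 205 CPM at 120 h in KO. In WT it was 80.9 and 185 CPM at 72 h, 70.7 and 233 CPM at 96 h and 82.7 and 107 CPM at 120 h. The genotypes overlapped at 96 h, and of the 9 markers edgeR called 0 at 72 h, 0 at 96 h and 1, Gata4, at 120 h. Both KO libraries were also above both WT libraries at 0 h (159 and 76.9 CPM in KO, 54.4 and 71.6 CPM in WT). The same held at 18 h (63.5 and 57.9 CPM in KO, 38.4 and 39.4 CPM in WT), where Wt1 was called higher in KO. At 12 h and 48 h the genotypes overlapped. The summed peritubular myoid level at 120 h was 39 and 25.2 CPM in KO and 7.31 and 14.4 CPM in WT. It was also higher in both KO libraries at 12 h (28 and 21.2 CPM in KO, 11.3 and 12 CPM in WT) and at 18 h (18.8 and 20.4 CPM in KO, 6.36 and 9.45 CPM in WT). So it was at 48 h (36.2 and 29 CPM in KO, 25.3 and 17.8 CPM in WT) and at 72 h (27.8 and 48.2 CPM in KO, 8.89 and 26.6 CPM in WT). At 0 h and 96 h the genotypes overlapped. Myh11 and the endothelial marker Cdh5 were called higher in KO at 120 h. The summed germ cell level at 120 h was 4229 and 4009 CPM in KO and 3219 and 3010 CPM in WT, with Piwil2 and Zbtb16 called higher and Kit called lower in KO. The part of these cells in the members' differences was not tested.

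On the mean over times the largest log2 difference between the genotypes among the members lay in Pfkfb3, the PFKFB enzyme with the strongest bias towards making fructose 2,6-bisphosphate. In KO libraries Pfkfb3 was at 62.1 and 62.7 CPM (0 h), 57.7 and 55.7 (12 h), 33.7 and 37.9 (18 h), 51.7 and 44.9 (48 h), 49.1 and 47.3 (72 h), 41.4 and 34 (96 h), and 52.5 and 54.4 (120 h). In WT libraries it was at 64.8 and 43.4 CPM (0 h), 22.4 and 21.2 (12 h), 14.3 and 10.4 (18 h), 50.7 and 28.1 (48 h), 21.4 and 24.4 (72 h), 15.1 and 12.9 (96 h), and 17.2 and 10.6 (120 h). The genotypes overlapped at 0 h and 48 h, and both KO libraries were above both WT libraries at the 5 other times. Pfkfb3 was higher in KO by 1.37 ± 0.26 on the log2 scale at 12 h (SE throughout; edgeR adjusted p = 0.00704), by 1.59 ± 0.27 at 18 h (edgeR adjusted p = 8.6e-04) and by 1.86 ± 0.27 at 120 h (edgeR adjusted p = 1.67e-04). The calls at 18 h and 120 h and that on the mean over times (1.11 ± 0.10, edgeR adjusted p = 1.87e-08) held with each of the 28 libraries left out in turn. That at 12 h ended without KO replicate 1, WT replicate 1 or WT replicate 2 of that time (edgeR adjusted p = 0.0774, 0.0826 and 0.118). At 72 h the difference of 1.02 ± 0.27 (edgeR adjusted p = 0.0315) ended without any one of the 4 libraries of that time (edgeR adjusted p between 0.0584 and 0.175). At 96 h the difference of 1.42 ± 0.28 (edgeR adjusted p = 0.00457) was 1.16 without KO replicate 1 of that time (edgeR adjusted p = 0.227).

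Over time, Pfkfb3 was called in WT alone in the main fit. Against 0 h, it fell by 1.30 ± 0.26 on the log2 scale at 12 h (edgeR adjusted p = 0.00143) and by 2.15 ± 0.27 at 18 h (edgeR adjusted p = 6.97e-06) in WT. It was not called there at 48 h, and it fell by 1.91 ± 0.27 at 120 h (edgeR adjusted p = 1.78e-05). No KO time was called for Pfkfb3 against 0 h, although both KO libraries at 18 h were below both at 0 h. The genotypes were not shown to differ in their time courses by the joint test. With the replicate number as a block, Pfkfb3 was called in KO at 18 h against 0 h and in that joint test. The related Pfkfb2 moved the other way in WT, with 29 and 21.4 CPM (120 h) and 11.8 and 9.83 CPM (0 h), a rise of 1.27 ± 0.29 on the log2 scale (edgeR adjusted p = 0.00195). In KO Pfkfb2 had 18.9 and 20.4 CPM (120 h) and 14.3 and 12.5 CPM (0 h), and no KO time was called. For Pfkfb2, 19.5% of its annotated exon bases are shared with other genes, and whether the counting used strand is not given in the sources used here. Pfkfb1, the liver form, lay at 4.48 to 11.7 CPM in KO and 4.17 to 13.0 CPM in WT. Pfkfb4, a form known from testis, lay at 1.53 to 11.8 CPM in KO and 1.74 to 11.3 CPM in WT, and neither was called in any comparison; with the replicate number as a block, Pfkfb4 was called in the WT course and in WT at 120 h against 0 h.

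Of the 12 ratios of paralogs tested, that of the PDK kinases had the smallest p between the genotypes. Pdk1 in KO libraries was at 122 and 119 CPM (0 h), 85.3 and 85.4 (12 h), 85 and 116 (18 h), 116 and 92.2 (48 h), 100.3 and 100.1 (72 h), 86.3 and 76.7 (96 h), and 91.2 and 78.6 (120 h). Pdk1 in WT libraries was at 107 and 147 CPM (0 h), 49.7 and 53.1 (12 h), 47.1 and 53 (18 h), 55.4 and 56.3 (48 h), 67.7 and 92.7 (72 h), 37.3 and 41.9 (96 h), and 38.1 and 31 (120 h). The genotypes overlapped at 0 h, and every KO library was above every WT library of its time from 12 h on. The difference was 1.07 ± 0.20 on the log2 scale at 18 h (edgeR adjusted p = 0.00193), 1.02 ± 0.20 at 96 h (edgeR adjusted p = 0.00536) and 1.22 ± 0.20 at 120 h (edgeR adjusted p = 4.84e-04). It was 0.73 ± 0.07 on the mean over times (edgeR adjusted p = 1.34e-07). The calls at 120 h and on the mean held without any one library. That at 18 h ended without KO replicate 2 or WT replicate 1 of that time (edgeR adjusted p = 0.0766 and 0.0607). That at 96 h ended without KO replicate 1 or WT replicate 1 of that time (edgeR adjusted p = 0.227 and 0.0624). A difference of 0.92 ± 0.20 at 48 h (edgeR adjusted p = 0.0387) was lost in 19 of the 28 refits that leave out 1 library, with the largest adjusted p of 0.529 without KO replicate 1 of that time.

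Pdk2, the kinase with the broadest tissue range, ran against Pdk1. In KO libraries Pdk2 was at 10.3 and 12.5 CPM (0 h), 8.19 and 9.64 (12 h), 5.53 and 8.55 (18 h), 7.31 and 8.98 (48 h), 10.6 and 6.49 (72 h), 15.7 and 17.5 (96 h), and 21.8 and 29.1 (120 h). In WT libraries Pdk2 was at 11 and 11.8 CPM (0 h), 8.19 and 15.7 (12 h), 9.34 and 11.5 (18 h), 9.01 and 10.9 (48 h), 25.5 and 9.77 (72 h), 29.5 and 36.7 (96 h), and 38.3 and 52.6 (120 h). Both KO libraries were below both WT libraries at 18, 48, 96 and 120 h, while the groups overlapped at 0, 12 and 72 h. On the mean over times Pdk2 was lower in KO by a log2 change of -0.61 ± 0.14 (edgeR adjusted p = 0.002), which held without any one library, but no single time was called. Against 0 h, Pdk2 in WT rose by 1.53 ± 0.36 at 96 h (edgeR adjusted p = 0.00288) and by 2.06 ± 0.36 at 120 h (edgeR adjusted p = 1.99e-04). Pdk1 in WT fell by 1.30 ± 0.20 at 12 h (edgeR adjusted p = 9.28e-05) and by 1.83 ± 0.20 at 120 h (edgeR adjusted p = 1.69e-06). No KO time was called for either kinase against 0 h, although Pdk2 passed the joint test over all KO times (edgeR adjusted p = 0.018). The change of Pdk1 from 0 h to 120 h differed between the genotypes (KO change minus WT change 1.32 ± 0.28 on the log2 scale, edgeR adjusted p = 0.0484), where 0.268% of all genes did. This was lost in 23 of the 28 refits that leave out 1 library (edgeR adjusted p up to 0.352).

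The log2 ratio of Pdk2 to Pdk1 counts within a library needs no scaling between libraries. It averaged -3.10 ± 0.79 in KO and -1.80 ± 1.37 in WT (SD, n = 14 libraries each), a difference of -1.30 (exact permutation of genotype within times, two-sided, p = 7.14e-05, adjusted p = 8.57e-04 over 12 paralog pairs). The ratio was lower in KO with each library left out in turn, between -1.43 and -1.17. In WT the ratio averaged -0.73 ± 1.41 at 72 to 120 h and -2.63 ± 0.70 at 0 to 18 h (SD, n = 6 libraries each), a difference of 1.89 (exact permutation, two-sided, p = 0.0195, adjusted p = 0.208). In KO it averaged -2.52 ± 0.88 at 72 to 120 h and -3.49 ± 0.30 at 0 to 18 h, a difference of 0.97 (exact permutation, two-sided, p = 0.0346, adjusted p = 0.143). The difference between these changes was -0.92 (exact permutation of genotype within times, p = 0.242, adjusted p = 0.415). That permutation assumes no genotype difference at any time. A steady genotype difference widens its spread, so it cannot decide whether the changes differ. Neither change over time passed after adjustment.

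**Figure D3:**
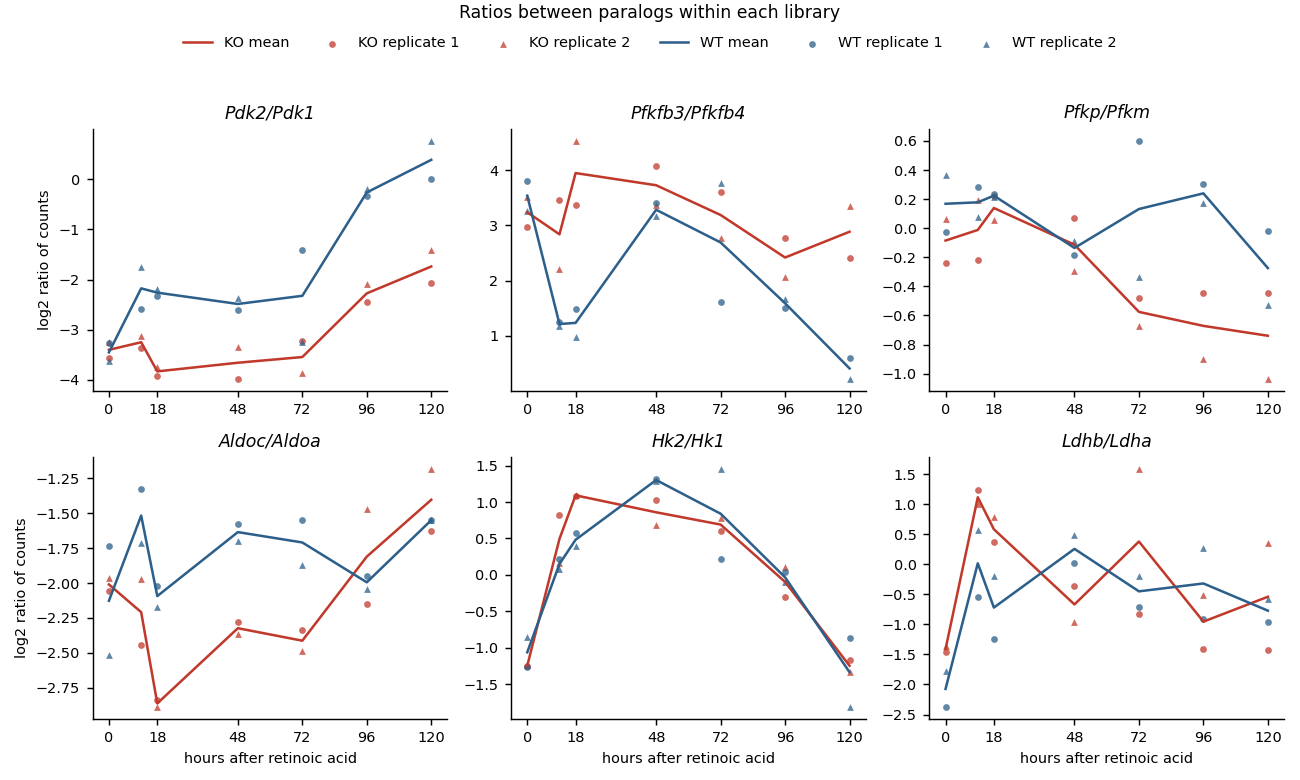
Log2 ratio of counts of paralogs within each library against hours after retinoic acid, for 6 of the 12 pairs; points are libraries (circles replicate 1, triangles replicate 2) and lines the means of 2 libraries, KO in red and WT in blue. The KO line of Pdk2/Pdk1 lies below the WT line from 12 h on, Pfkp/Pfkm lies below 0 in every KO library from 72 h on, and Hk2/Hk1 goes up and comes down again in both genotypes.

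Because Pdk1 and Pfkfb3 were the members with the most calls between the genotypes and Pdk2 ran against them, the 250 bases before an annotated start of each are shown, read 5′ to 3′ on the gene's strand from RefSeq on GRCm38.p6. They lie at chr2:71872974-71873223 (+ strand) for Pdk1, chr11:95041372-95041621 (- strand) for Pdk2 and chr2:11553930-11554179 (- strand) for Pfkfb3, and each gene has a further listed start that is not printed. Capitals mark matches, on either strand, to ACGTG or GCGTG (cores of the hypoxia response element), CACGTG (an E-box, which contains ACGTG) or CNCCTCAG (a motif reported for STRA8 binding). For Pdk1 and Pdk2 the window shown is the one with a match, and the other holds none of the 4 motifs, while the other window of Pfkfb3 holds a GCGTG match and the E-box.
Pdk1: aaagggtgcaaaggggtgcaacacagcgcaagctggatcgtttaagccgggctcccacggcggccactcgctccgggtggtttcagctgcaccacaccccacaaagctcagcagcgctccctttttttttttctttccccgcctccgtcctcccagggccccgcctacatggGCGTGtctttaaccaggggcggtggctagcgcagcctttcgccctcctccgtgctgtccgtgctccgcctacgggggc
Pdk2: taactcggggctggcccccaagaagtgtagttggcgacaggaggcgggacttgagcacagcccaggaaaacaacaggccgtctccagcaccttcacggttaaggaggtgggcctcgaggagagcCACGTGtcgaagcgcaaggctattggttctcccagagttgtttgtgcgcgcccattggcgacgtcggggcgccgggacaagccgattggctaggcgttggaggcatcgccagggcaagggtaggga
Pfkfb3: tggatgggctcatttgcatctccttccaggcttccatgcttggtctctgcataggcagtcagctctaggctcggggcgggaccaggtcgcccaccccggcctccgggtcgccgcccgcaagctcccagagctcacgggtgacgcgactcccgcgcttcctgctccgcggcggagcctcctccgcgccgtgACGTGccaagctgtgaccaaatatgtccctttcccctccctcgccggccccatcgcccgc
Of the 35 members, 32 matched a RefSeq promoter by symbol, with 52 such windows in all. ACGTG occurred in 34.6% of these windows and in 16.6% of all 32851 windows of the same length, GCGTG in 53.8% and 28.2%, CACGTG in 11.5% and 6.02%, and CNCCTCAG in 5.77% and 6.42%. Windows of 1 gene can overlap, base composition was not matched, and a match shows only that these letters occur.

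Phosphofructokinase also changed in its paralogs. Pfkm, the muscle form, was in KO libraries at 66.1 and 51.9 CPM (0 h), 39.2 and 36.6 (12 h), 34.2 and 33.3 (18 h), 30.0 and 32 (48 h), 41.2 and 44.5 (72 h), 44 and 37.2 (96 h), and 57.6 and 60.2 (120 h). Pfkm in WT was at 52.3 and 37.5 CPM (0 h), 33.9 and 34.4 (12 h), 34.9 and 31.5 (18 h), 38.4 and 37.1 (48 h), 17.9 and 27.1 (72 h), 13.7 and 17.4 (96 h), and 18.4 and 17.8 (120 h). Every KO library at 72, 96 and 120 h was above every WT library of those times, and at 48 h both KO libraries were below both WT libraries. The difference was 1.39 ± 0.23 on the log2 scale at 96 h (edgeR adjusted p = 0.0014) and 1.60 ± 0.22 at 120 h (edgeR adjusted p = 9.31e-05). The 120 h value held without any one library, within 1.53 to 1.62. At 96 h it was 1.15 without KO replicate 1 of that time (edgeR adjusted p = 0.158). At 72 h it was 0.86 ± 0.22 (edgeR adjusted p = 0.0296) and ended without KO replicate 1, KO replicate 2 or WT replicate 1 of that time (edgeR adjusted p = 0.137, 0.143 and 0.234). Pfkm was also the member whose whole time course differed between KO and WT in the joint test of genotype by time (edgeR adjusted p = 0.0329), which 0.108% of all genes passed. That call was lost in 20 of the 28 refits that leave out 1 library, without the shallow libraries, and without the 7 WT replicate 1 libraries. DESeq2 called 5 members in this test.

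Pfkp, the platelet form, was at 56.1 and 54.4 CPM (0 h), 33.7 and 41.9 (12 h), 39.9 and 34.6 (18 h), 31.5 and 26 (48 h), 29.5 and 27.8 (72 h), 32.3 and 19.7 (96 h), and 42.3 and 29.1 (120 h) in KO. It was at 51.2 and 48.3 CPM (0 h), 41.2 and 36.2 (12 h), 41.1 and 36.6 (18 h), 33.8 and 35 (48 h), 27.1 and 21.5 (72 h), 16.9 and 19.6 (96 h), and 18.2 and 12.3 (120 h) in WT. The genotypes overlapped at 12 h and 18 h, KO was the lower one at 48 h, and at 120 h both KO libraries were above both WT libraries (1.20 ± 0.25 on the log2 scale, edgeR adjusted p = 0.0028). This ended without KO replicate 1 or WT replicate 2 of that time (0.73, edgeR adjusted p = 0.222, and 0.97, edgeR adjusted p = 0.0785). The log2 ratio of Pfkp to Pfkm averaged -0.29 ± 0.40 in KO and 0.08 ± 0.30 in WT (SD, n = 14 libraries each; exact permutation within times, adjusted p = 0.014). Its adjusted p was 0.051 (exact permutation) without KO replicate 2 at 72 h. Without the 3 shallow libraries it was -0.28 (exact permutation, adjusted p = 0.104). In KO it averaged -0.66 ± 0.25 at 72 to 120 h and 0.01 ± 0.20 at 0 to 18 h, with no overlap between these libraries (SD, n = 6 each; exact permutation, two-sided, p = 0.00216, adjusted p = 0.026). In WT it averaged 0.03 ± 0.42 at 72 to 120 h and 0.19 ± 0.14 at 0 to 18 h (exact permutation, adjusted p = 0.56). These tests count the 2 libraries of a time as independent, so their p-values may be too small. Each SD includes change between the times pooled. The difference between the genotypes' changes was -0.52 (exact permutation of genotype within times, adjusted p = 0.328). As for the PDK kinases, that permutation cannot decide whether the changes differ, since a steady genotype difference widens its spread. Without the 3 shallow libraries the KO change was -0.47 (exact permutation, adjusted p = 0.143, with only 84 assignments), and with labels permuted within replicate number it had an adjusted p of 0.06 (exact permutation).

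Pfkl, the liver form, was the member with the largest difference at a single late time that held without any one library. At 72 h it had 19.8 and 35.2 CPM (72 h) in KO and 7.57 and 4.89 CPM (72 h) in WT, a difference of 2.01 ± 0.34 on the log2 scale (edgeR adjusted p = 0.00249). The higher KO value belongs to the library with the highest summed CPM of Sertoli markers. Without the 3 shallow libraries, of which that library is 1, the difference was 1.67 ± 0.37 (edgeR adjusted p = 0.044). With the recovered reads, where Pfkl was at 34.2 CPM at 72 h, it was 2.13 ± 0.32 (edgeR adjusted p = 4.64e-04). Over the course Pfkl lay between 9.37 and 35.2 CPM in KO and between 4.89 and 14.5 CPM in WT.

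Of the hexokinases, which trap glucose in the cell, Hk1 fell early in both genotypes. Hk1 in KO was at 172 and 163 CPM (0 h), 57.9 and 82.7 (12 h), 54.3 and 51.1 (18 h), 57 and 73.9 (48 h), 80.6 and 87.2 (72 h), 101 and 97.5 (96 h), and 141 and 125 (120 h). Hk1 in WT was at 150.2 and 142 CPM (0 h), 65.4 and 56.9 (12 h), 56.2 and 59.4 (18 h), 63.7 and 69.8 (48 h), 83.9 and 53.1 (72 h), 88.2 and 122 (96 h), and 83.7 and 76.5 (120 h). Both KO and both WT libraries were at their highest at 0 h and low at 12 h and 18 h, and in KO the 120 h libraries were the next highest after 0 h. Against 0 h, Hk1 changed at 18 h by -1.60 ± 0.21 on the log2 scale in KO (edgeR adjusted p = 6.54e-05) and by -1.37 ± 0.21 in WT (edgeR adjusted p = 9.35e-05). At 120 h the KO libraries were higher than WT by 0.65 ± 0.21 (edgeR adjusted p = 0.0393), which was lost in 20 of the 28 refits that leave out 1 library (edgeR adjusted p up to 0.369).

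Hk2, the hexokinase of growing and insulin-sensitive cells, was at 72 and 68.8 CPM (0 h), 103 and 92.6 (12 h), 115 and 109.8 (18 h), 117 and 119 (48 h), 122 and 150.2 (72 h), 81.7 and 105 (96 h), and 62.8 and 49.5 (120 h) in KO. It was at 62.3 and 78.3 CPM (0 h), 75.9 and 60.5 (12 h), 83.6 and 77.9 (18 h), 159 and 171 (48 h), 98.1 and 146 (72 h), 90.4 and 114 (96 h), and 46 and 21.8 (120 h) in WT. In WT the 48 h libraries were the highest of all and the 120 h libraries the lowest, while the KO libraries of 12 to 72 h lay between 92.6 and 150.2 CPM. Hk2 in WT rose by 1.22 ± 0.24 on the log2 scale at 48 h (edgeR adjusted p = 0.0016) and fell by 1.01 ± 0.25 at 120 h (edgeR adjusted p = 0.00355). The rise ended without WT replicate 1 at 0 h (log2 change 1.03, edgeR adjusted p = 0.0608) and the fall without WT replicate 2 at 120 h (-0.63, edgeR adjusted p = 0.103). No single KO time was called for Hk2, though the joint test over KO times was passed (edgeR adjusted p = 0.00879). The log2 ratio of Hk2 to Hk1 averaged 0.08 ± 0.95 in KO and 0.05 ± 0.98 in WT (SD, n = 14 libraries each; exact permutation within times, adjusted p = 0.83).

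**Figure D4:**
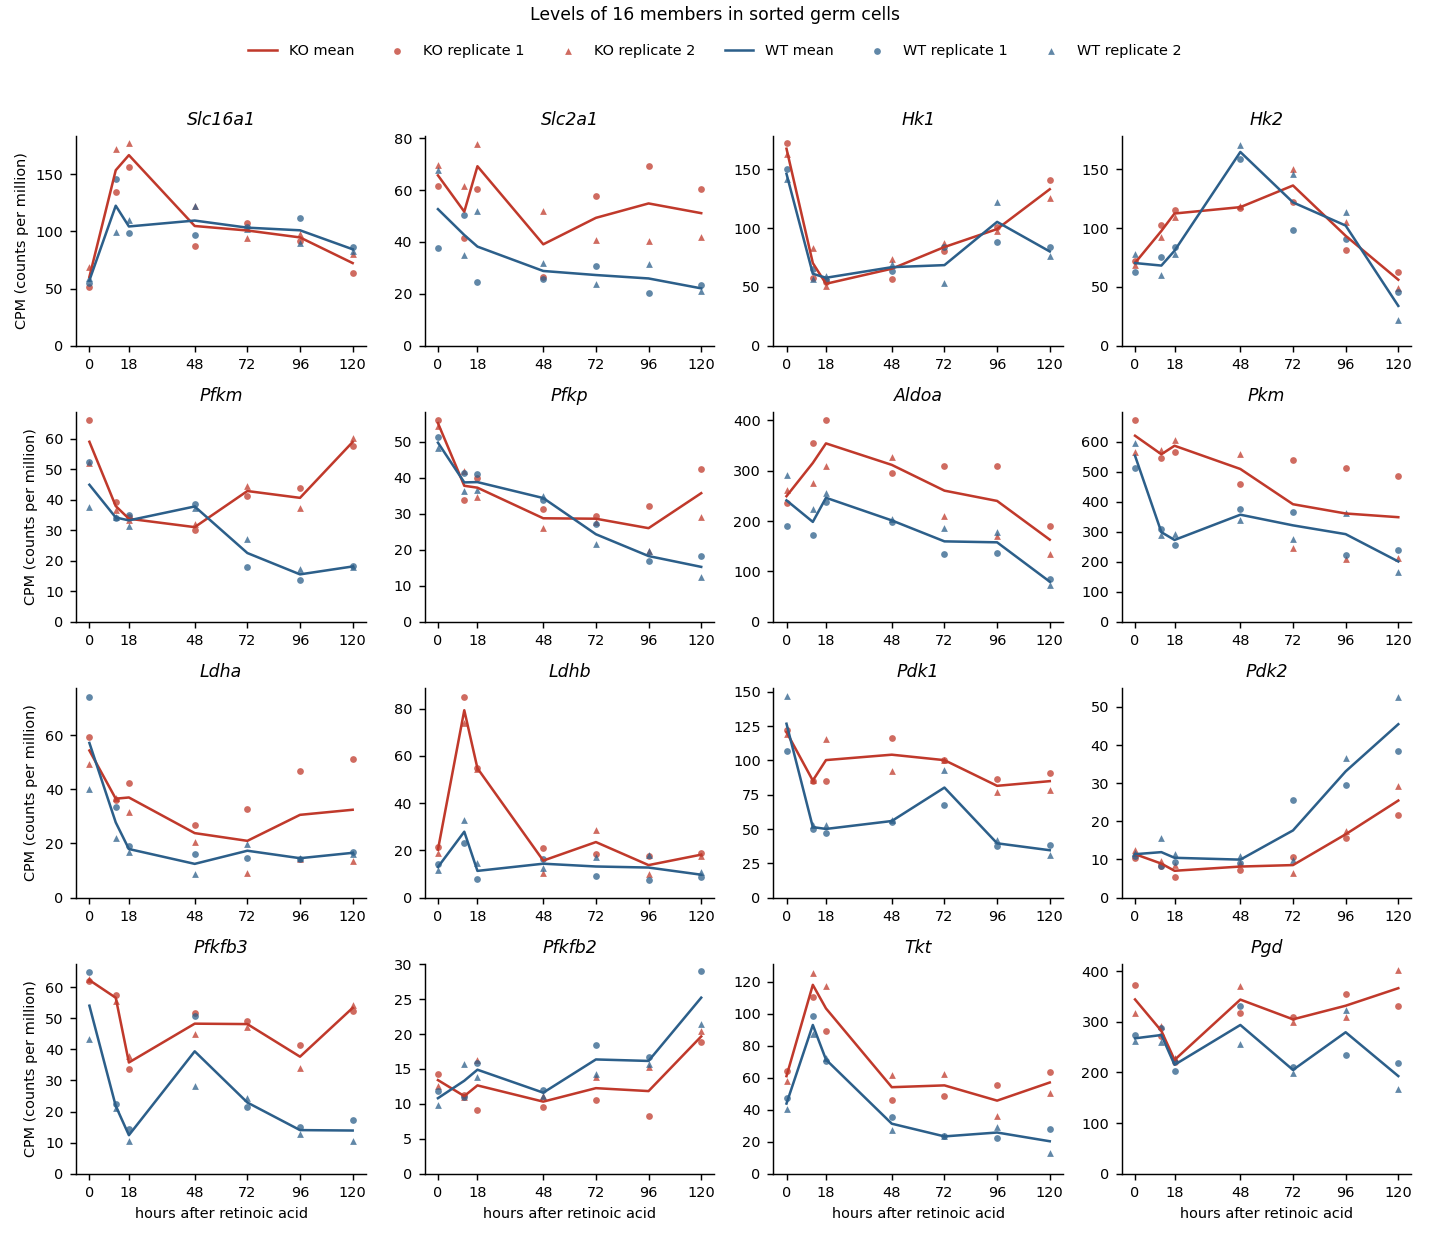
CPM of 16 members in each library against hours after retinoic acid (each vertical axis starts at 0); circles are replicate 1, triangles replicate 2 and lines the means of 2 libraries, KO in red and WT in blue. Pfkfb3, Pdk1 and Tkt lie higher in KO after 0 h, Ldhb peaks at 12 h in KO, Pdk2 reaches 52.6 CPM in WT at 120 h, and Hk1 dips in both genotypes.

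Lactate dehydrogenase gave the largest difference at an early time. Ldhb, the subunit associated with turning lactate into pyruvate, was at 21.6 and 19.1 CPM (0 h), 84.9 and 73.8 (12 h), 55 and 54.6 (18 h), 20.9 and 10.5 (48 h), 18.3 and 28.7 (72 h), 17.7 and 9.86 (96 h), and 18.9 and 17.5 (120 h) in KO. It was at 14.3 and 11.6 CPM (0 h), 23 and 32.8 (12 h), 8.05 and 14.6 (18 h), 16.4 and 12.4 (48 h), 9.01 and 17.4 (72 h), 7.57 and 17.9 (96 h), and 8.70 and 10.7 (120 h) in WT. KO libraries at 12 h and 18 h were above every WT library, and the genotypes overlapped at 48 h and 96 h. Against 0 h, Ldhb in KO rose by 1.99 ± 0.38 on the log2 scale at 12 h (edgeR adjusted p = 0.00185). KO exceeded WT by 2.35 ± 0.39 at 18 h (edgeR adjusted p = 8.6e-04), and both of these held without any one library. The KO rise of 1.49 ± 0.38 at 18 h (edgeR adjusted p = 0.0151) ended without any one of the KO libraries of 0 h or 18 h (edgeR adjusted p between 0.0719 and 0.143). The excess of 1.51 ± 0.37 at 12 h (edgeR adjusted p = 0.0456) was lost in 18 of the 28 refits that leave out 1 library (edgeR adjusted p up to 0.393). It was also lost with either treatment of the shallow libraries (edgeR adjusted p = 0.0534 without them and 0.056 with the recovered reads). Ldhb was called in WT only in the joint test over times (edgeR adjusted p = 0.0325).

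Ldha, the subunit associated with making lactate, was at 59.4 and 49.2 CPM (0 h), 36.2 and 36.9 (12 h), 42.4 and 31.6 (18 h), 27 and 20.7 (48 h), 32.7 and 9.27 (72 h), 46.9 and 14.2 (96 h), and 51.3 and 13.6 (120 h) in KO. It was at 74.1 and 40.1 CPM (0 h), 33.4 and 22.1 (12 h), 19.1 and 16.8 (18 h), 16.2 and 8.78 (48 h), 14.8 and 19.9 (72 h), 14.3 and 14.8 (96 h), and 17 and 16.1 (120 h) in WT. KO libraries were above WT libraries at 12, 18 and 48 h, and at later times the shallow KO library of each pair was below both WT libraries while its partner was above them. On the mean over times KO exceeded WT by 0.71 ± 0.20 on the log2 scale (edgeR adjusted p = 0.0102). The difference was 0.94 ± 0.12 without the shallow libraries (edgeR adjusted p = 1.19e-05) and 0.78 ± 0.15 with the recovered reads (edgeR adjusted p = 3.04e-04). It ended without KO replicate 1 at 72, 96 or 120 h, the partners of the shallow libraries (edgeR adjusted p = 0.0871, 0.0608 and 0.069). In WT Ldha fell by 1.73 ± 0.53 at 120 h (edgeR adjusted p = 0.0208), and this ended without WT replicate 1 at 0 h or either WT library at 120 h (edgeR adjusted p = 0.199, 0.0957 and 0.13).

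Of the pyruvate dehydrogenase subunits, Pdha1 was called and Pdhb was not. Pdha1, the catalytic alpha subunit that the PDK kinases phosphorylate, had 72.6 and 62.9 CPM (0 h) and 49.6 and 48.5 (120 h) in KO and 63.6 and 75 CPM (0 h) and 27.1 and 22.9 (120 h) in WT. At 120 h both KO libraries were above both WT libraries (0.89 ± 0.20 on the log2 scale, edgeR adjusted p = 0.00554). That call ended without KO replicate 1 or WT replicate 2 of that time (edgeR adjusted p = 0.124 and 0.0819), whereas the mean over times, 0.44 ± 0.07 (edgeR adjusted p = 7.56e-05), held without any one library. In WT Pdha1 fell by 1.42 ± 0.20 at 120 h (edgeR adjusted p = 1.8e-05). Reads of Pdha1 may be shared with Map3k15, which overlaps 16.1% of its exon bases on the other strand. Pdhb, the beta subunit, passed in no comparison. Its KO values at 120 h were 102 and 45.6 CPM, the lower one in the shallow library, against 117 and 167 CPM in WT.

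Among the members of the pentose phosphate pathway, the largest differences were those of Tkt. Tkt, transketolase, which links that pathway back to glycolysis, was at 64.3 and 57.8 CPM (0 h), 111 and 126 (12 h), 89.1 and 118 (18 h), 46.2 and 62 (48 h), 48.3 and 62.1 (72 h), 55.2 and 36.1 (96 h), and 63.6 and 50.5 (120 h) in KO. It was at 47.2 and 40.5 CPM (0 h), 98.7 and 87.5 (12 h), 70.5 and 72.3 (18 h), 35.3 and 27.1 (48 h), 23.3 and 23.2 (72 h), 22.4 and 29 (96 h), and 27.6 and 12.8 (120 h) in WT. Both genotypes averaged highest at 12 h, and every KO library was above every WT library of its time, 0 h included. KO exceeded WT by 1.16 ± 0.28 on the log2 scale at 72 h (edgeR adjusted p = 0.0213), by 1.44 ± 0.28 at 120 h (edgeR adjusted p = 0.00165) and by 0.81 ± 0.10 on the mean over times (edgeR adjusted p = 2.26e-06). The last value held without any one library. The 72 h call ended without any one of the 4 libraries of that time (edgeR adjusted p between 0.0668 and 0.144). The 120 h call ended without KO replicate 1 or WT replicate 2 of that time (edgeR adjusted p = 0.0882 and 0.0614).

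G6pdx and Pgd, the dehydrogenases that make NADPH, were higher in KO by small margins on the mean over times. G6pdx was higher by 0.32 ± 0.07 on the log2 scale (26.6 to 43.5 CPM in KO libraries and 23.8 to 35.9 CPM in WT libraries; edgeR adjusted p = 0.00137). Pgd was higher by 0.33 ± 0.07 (220.2 to 403 CPM in KO libraries and 167 to 331 CPM in WT libraries; edgeR adjusted p = 4.62e-04). Both held without any one library, and the ranges of the genotypes overlapped in both. Pgd at 120 h differed by 0.83 ± 0.18 (331 and 403 CPM in KO, 219 and 167 CPM in WT; edgeR adjusted p = 0.00346), which ended without WT replicate 2 of that time (0.66, edgeR adjusted p = 0.0973). Taldo1, transaldolase, was called in no comparison and had 194 to 246 CPM in KO libraries and 176 to 275 CPM in WT libraries.

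Lower glycolysis is where the shallow libraries weigh most. Pkm was at 672 and 566 CPM (0 h), 544 and 571 (12 h), 566 and 606 (18 h), 459.6 and 557 (48 h), 538 and 244 (72 h), 513 and 208 (96 h), and 485 and 211 (120 h) in KO. It was at 510.3 and 595 CPM (0 h), 308 and 288 (12 h), 254 and 291 (18 h), 374 and 339 (48 h), 367 and 275 (72 h), 222 and 361 (96 h), and 237 and 164 (120 h) in WT. From 12 h to 48 h all KO libraries were above all WT libraries, and from 72 h the shallow KO library lay within or below the WT values. KO exceeded WT on the mean over times by 0.58 ± 0.16 on the log2 scale (edgeR adjusted p = 0.0108). The difference was 0.79 ± 0.09 without the shallow libraries (edgeR adjusted p = 1.75e-06) and 0.76 ± 0.08 with the recovered reads (edgeR adjusted p = 7.2e-08). Gene-level counts do not separate the M1 and M2 forms of pyruvate kinase, and 15.3% of the exon bases of Pkm are shared with another annotated transcript. Pkm in WT fell by 1.42 ± 0.44 at 120 h (edgeR adjusted p = 0.0221), a call that ended without any one of the WT libraries of 0 h or 120 h (edgeR adjusted p between 0.0542 and 0.189).

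Eno1, the main enolase, was at 243 and 273 CPM (0 h), 445 and 374 (12 h), 488 and 418 (18 h), 285 and 334 (48 h), 254 and 61.2 (72 h), 317 and 37.2 (96 h), and 218 and 57.3 (120 h) in KO. It was at 212 and 279.8 CPM (0 h), 130.4 and 227 (12 h), 122 and 178 (18 h), 199.9 and 129 (48 h), 115 and 159 (72 h), 106 and 131 (96 h), and 87 and 91.8 (120 h) in WT. KO was above WT at 12 h, 18 h and 48 h in every library, and the 3 shallow libraries were below all WT libraries of their times. On the mean over times the difference was 0.75 ± 0.28 on the log2 scale (edgeR adjusted p = 0.0497), and it was lost in 25 of the 28 refits that leave out 1 library (edgeR adjusted p up to 0.213). It was 1.06 ± 0.11 without the shallow libraries (edgeR adjusted p = 5.37e-07) and 0.95 ± 0.11 with the recovered reads (edgeR adjusted p = 1.83e-06). With the replicate number as a block it was 0.70 (edgeR adjusted p = 0.0697).

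Pgk1, phosphoglycerate kinase, was at 8.20 and 12.5 CPM (0 h), 12.1 and 14.1 (12 h), 13.6 and 13.2 (18 h), 8.50 and 11.7 (48 h), 9.25 and 0.927 (72 h), 10.5 and 1.10 (96 h), and 12.6 and 1.94 (120 h) in KO. It was at 12.8 and 11.1 CPM (0 h), 14.7 and 15 (12 h), 12.4 and 15.6 (18 h), 16.1 and 9.84 (48 h), 18.7 and 16.9 (72 h), 23.3 and 13.6 (96 h), and 19.5 and 18.7 (120 h) in WT. The 3 shallow KO libraries were the lowest of all 28, with 1, 1 and 2 reads. Pgk1 was called lower in KO in each treatment of these libraries. The log2 change was -0.67 ± 0.20 on the mean over times (edgeR adjusted p = 0.014), -0.46 ± 0.13 without them (edgeR adjusted p = 0.00843) and -0.53 ± 0.12 with the recovered reads (edgeR adjusted p = 9.22e-04). Gapdh and Pgam1 were not called on the mean over times. For Gapdh the log2 change was -0.56 ± 0.38 (edgeR adjusted p = 0.27), -0.20 ± 0.10 without the shallow libraries (edgeR adjusted p = 0.131) and -0.32 ± 0.12 with the recovered reads (edgeR adjusted p = 0.0323). At 0 to 48 h, Gapdh had 287 to 436 CPM in KO and 272 to 494 CPM in WT.

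Aldolase and triose phosphate isomerase, which split and interconvert the triose phosphates, were higher in KO. Aldoa was at 237 and 262 CPM (0 h), 295 and 328 (48 h), and 191 and 135 (120 h) in KO, against 190.3 and 292 CPM (0 h), 198 and 205 (48 h), and 85.6 and 73.5 (120 h) in WT. The genotypes overlapped at 0 h and were separate at 48 h and 120 h. Aldoa was higher in KO by 0.59 ± 0.11 on the log2 scale on the mean over times (edgeR adjusted p = 1.75e-04), which held without any one library. At 120 h it was higher by 0.96 ± 0.29 (edgeR adjusted p = 0.0267), which ended without KO replicate 1, WT replicate 1 or WT replicate 2 of that time (0.56, 1.03 and 0.88, with edgeR adjusted p = 0.369, 0.0832 and 0.199). With the recovered reads the 120 h value was 1.38 ± 0.21 (edgeR adjusted p = 1.72e-04).

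Aldoc, the brain-type aldolase, had 61.9 and 59.2 CPM (120 h) in KO and 29.3 and 25 CPM (120 h) in WT (1.07 ± 0.21 on the log2 scale, edgeR adjusted p = 0.00167). Without KO replicate 1 of that time this was 0.92 (edgeR adjusted p = 0.0691). The log2 ratio of Aldoc to Aldoa averaged -2.15 ± 0.49 in KO and -1.80 ± 0.31 in WT (SD, n = 14 libraries each; exact permutation within times, adjusted p = 0.0357). That call was lost in 12 of the 28 refits that leave out 1 library (exact permutation, adjusted p up to 0.111) and with the replicate block (exact permutation, adjusted p = 0.0706). Tpi1, triose phosphate isomerase, lay between 19.4 and 39.1 CPM in KO libraries and between 9.72 and 23.3 CPM in WT libraries. It was higher in KO by 0.82 ± 0.13 on the mean over times (edgeR adjusted p = 2.86e-05), which held without any one library, and it was called at no single time. Gpi1 was not called (0.22 ± 0.10, edgeR adjusted p = 0.0785), but passed without the shallow libraries (0.37 ± 0.08, edgeR adjusted p = 0.00108).

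Among the carriers, Slc16a1, the lactate and pyruvate transporter MCT1, was higher after retinoic acid in both genotypes. It was at 51.5 and 69 CPM (0 h), 135 and 172 (12 h), 157 and 177 (18 h), 87.7 and 122 (48 h), 107 and 94.6 (72 h), 92.1 and 97.5 (96 h), and 64.1 and 80.6 (120 h) in KO. In WT it was at 55.3 and 59.1 CPM (0 h), 146 and 99.2 (12 h), 98.5 and 110.2 (18 h), 96.6 and 122 (48 h), 104 and 102 (72 h), 112 and 90.2 (96 h), and 86.1 and 82.7 (120 h). Every later library but KO replicate 1 at 120 h was above the 0 h libraries of its genotype. Against 0 h, Slc16a1 rose by 1.39 ± 0.21 on the log2 scale at 12 h (edgeR adjusted p = 2.3e-04) and by 1.54 ± 0.21 at 18 h (edgeR adjusted p = 1.02e-04) in KO, and both calls held without any one library. In WT it rose by 1.11 ± 0.21 at 12 h (edgeR adjusted p = 8.98e-04), which ended without WT replicate 1 of that time (0.76, edgeR adjusted p = 0.0514). The excess of KO over WT at 18 h, 0.75 ± 0.21 (edgeR adjusted p = 0.0405), was lost in 6 of the 28 refits, with edgeR adjusted p up to 0.353 without WT replicate 1 of that time.

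The glucose carrier Slc2a1 (GLUT1) had 26.4 to 77.8 CPM in KO libraries, with a median of 59.1, and 20.4 to 67.6 CPM in WT libraries, with a median of 31.2. It was higher in KO by 0.72 ± 0.15 on the log2 scale on the mean over times (edgeR adjusted p = 9.61e-04), which held without any one library. In WT it fell by 1.20 ± 0.40 at 120 h (edgeR adjusted p = 0.0287), which ended without WT replicate 2 at 0 h or either WT library at 120 h (edgeR adjusted p = 0.296, 0.0969 and 0.157). Slc2a3 (GLUT3) and the lactate exporter Slc16a3 (MCT4) passed on the mean over times with 0.37 ± 0.13 (edgeR adjusted p = 0.0323) and 0.52 ± 0.19 (edgeR adjusted p = 0.0351). The call of Slc2a3 was lost in 18 of the 28 refits that leave out 1 library (edgeR adjusted p up to 0.169), and that of Slc16a3 in 15 (edgeR adjusted p up to 0.235). The log2 ratio of Slc16a3 to Slc16a1 changed by 1.59 more in KO than in WT between 0 to 18 h and 72 to 120 h (exact permutation of genotype within times, p = 0.013, adjusted p = 0.156). That permutation assumes no genotype difference at any time, so it does not test the change alone.

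The ratio of Pfkfb3 to Pfkfb4 differed between the genotypes as Pfkfb3 itself did, averaging 3.18 ± 0.69 in KO and 1.99 ± 1.23 in WT on the log2 scale (SD, n = 14 libraries each; exact permutation within times, adjusted p = 0.00943). It stayed between 1.03 and 1.34 higher in KO with each library left out in turn. Of the 5 ratios called between the genotypes, only that of Pdk2 to Pdk1 was called without the 7 WT replicate 1 libraries (exact permutation, adjusted p = 0.0329). The names Pgm1 and Pgm2 have been exchanged between versions of the mouse annotation and the tables give no identifiers, so which locus each row stands for is not settled here. The row named Pgm2 had 119 to 170.1 CPM in KO and 82.1 to 182 CPM in WT, and fell in WT by 0.61 ± 0.17 on the log2 scale at 120 h (edgeR adjusted p = 0.00872). The row named Pgm1 had 0.245 to 3.71 CPM in KO and 0.174 to 1.85 CPM in WT. At that depth a count of 3 reads corresponds to between 0.296 and 3.29 CPM in a library, so its call on the mean over times (1.01 ± 0.39, edgeR adjusted p = 0.0439) rests on few reads. It was lost in 20 of the 28 refits, without the shallow libraries and with the recovered reads (edgeR adjusted p = 0.0587). The log2 ratio of Pgm2 to Pgm1 differed by -0.95 in KO relative to WT (exact permutation, adjusted p = 0.0282), and this was lost in 7 of the 28 refits and without the shallow libraries (exact permutation, adjusted p = 0.145).

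Over time, most of the calls of members against 0 h lay late in WT and early in KO, as did those of all genes tested. The 3 shallow libraries belong to the late KO groups. In WT, 17 of 34 members passed the joint test over the 6 later times, where 37.3% of all genes did, and in KO 9 did, where 15.8% of all genes did. The KO count was 4 without the 3 shallow libraries and 11 with the recovered reads. Members called in the joint test of both genotypes were Hk1, Hk2, Ldhb, Pdk2, Pfkm, Pfkp, Slc16a1 and Tkt. The numbers called against 0 h in WT were 5 at 12 h, 6 at 18 h, 6 at 48 h, 10 at 72 h, 9 at 96 h and 17 at 120 h, where 10.9%, 11.9%, 12.8%, 12.9%, 26.7% and 28.9% of all genes were called. In KO they were 4, 4, 4, 1, 1 and 0, where 8.57%, 8.93%, 4.51%, 0.491%, 1.75% and 0.953% were called. At 120 h in KO, edgeR's 0 calls stand beside 5 members with an unadjusted p under 0.05 and 0 calls by DESeq2. The KO calls numbered 14 in all and 6 without KO replicate 1 at 0 h or 9 without KO replicate 2 at 0 h, and the WT calls numbered 53 in all and 35 without WT replicate 1 at 0 h. Without the 7 WT replicate 1 libraries the WT calls numbered 30, of which 29 were among the 53, and those lost included every call of Slc16a1 but that at 48 h and all calls of Ldha. These counts do not compare the genotypes. In the joint test of genotype by time 1 member passed and 10 had an unadjusted p under 0.05, as did 9.76% of all genes.

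At 120 h in WT, 14 members were lower and 3 higher than at 0 h, where 14.7% of all genes were lower and 14.2% higher. The lower ones included Pfkp (-1.66 ± 0.24 on the log2 scale, edgeR adjusted p = 3.08e-05), Aldoa (-1.55 ± 0.29, edgeR adjusted p = 3.65e-04) and Pfkm (-1.25 ± 0.21, edgeR adjusted p = 1.45e-04), and these 3 held without any one library. The higher ones were Pdk2, Pfkfb2 and Slc16a1. The last had 86.1 and 82.7 CPM (120 h) and 55.3 and 59.1 CPM (0 h) (0.61 ± 0.21, edgeR adjusted p = 0.0302), and its call ended without any one of those 4 libraries (edgeR adjusted p between 0.073 and 0.216). Hk1 (-0.81 ± 0.21, edgeR adjusted p = 0.00465) and Aldoc (-0.94 ± 0.20, edgeR adjusted p = 0.00121) held. The KO and WT comparisons with 0 h use different baseline libraries, while the comparisons of one genotype share theirs.

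**Figure D5:**
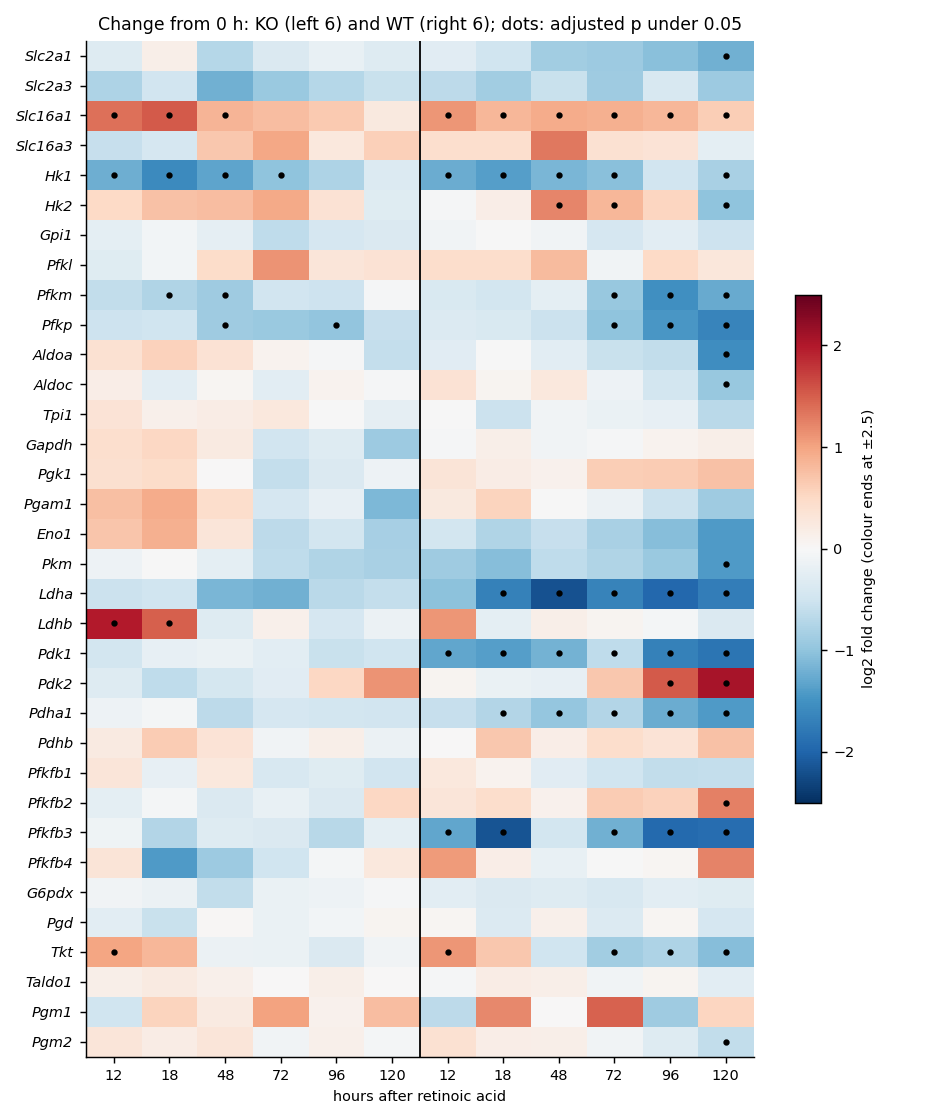
Log2 fold change from 0 h of the 34 members tested (rows) at 12 to 120 h after retinoic acid (hours), KO in the left 6 columns and WT in the right 6; red is higher and blue lower than at 0 h of the same genotype, and a dot marks an adjusted p under 0.05. Dots in KO lie at 12 to 48 h for Slc16a1 and end by 96 h, while WT has 17 dots at 120 h.

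Beyond the members, 5 lists of other genes of these pathways were read. Of 28 further paralogs of the members' enzymes, 16 were tested, and on the mean over times 2 were higher and 4 lower in KO. Pgm5, an inactive relative of phosphoglucomutase, was higher by 1.73 ± 0.17 on the log2 scale, with a median of 14.9 CPM in KO and 2.86 CPM in WT. Pgm3, which acts on N-acetylglucosamine, was lower by a log2 change of -0.66 ± 0.10. The testis-specific isozymes Pgk2 and Gapdhs reached at most 0.755 and 0.299 CPM in any library, and Pgam2, the muscle form of phosphoglycerate mutase, 1.74 CPM. Other paralogs of the list were not so low. Pdha2 lay between 7.31 and 29.6 CPM and Tktl2 between 14.4 and 41.4 CPM, and both were called in WT at 120 h against 0 h. Aldoart1 reached 4.38 CPM. Ldhc lay between 0.326 and 11.3 CPM, and Pdk3, another PDK kinase, between 72.2 and 116 CPM. Pdk3 was called between the genotypes on the mean over times, with a median of 89.6 CPM in KO and 101 CPM in WT. So was Tktl1, a relative of Tkt, with a median of 92.1 CPM in KO and 117 CPM in WT. Of 9 other pentose phosphate genes, 1 was higher and 3 lower in KO. Prps2, which makes the nucleotide precursor phosphoribosyl pyrophosphate, was higher by 0.88 ± 0.15, and its paralog Prps1 was lower by a log2 change of -0.32 ± 0.08.

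Of 9 other genes of the pyruvate gate, 3 were higher in KO and 1 lower, among them Pdp2, a phosphatase that undoes the action of the PDK kinases (0.40 ± 0.10), and Dlat, the acetyltransferase of pyruvate dehydrogenase (0.36 ± 0.07). Of 11 tested genes of gluconeogenesis and glycogen, 3 were higher and 5 lower, with G6pc3, a glucose 6-phosphatase, at 0.89 ± 0.12 and Pck2, the mitochondrial PEP carboxykinase, at -0.95 ± 0.15. Of 16 tested regulators, 6 were higher and 3 lower (Arnt, Egln1, Epas1, Esrra, Max, Mlxip, Mycn, Txnip and Vhl). Epas1, which encodes the hypoxia-inducible factor HIF-2α, was higher by 0.78 ± 0.07. Mycn, a MYC family factor, was higher by 0.75 ± 0.07, and Egln1, a prolyl hydroxylase that marks HIF for destruction, by 0.70 ± 0.10. Vhl, whose product then targets HIF, was lower by a log2 change of -0.44 ± 0.08. These values are edgeR log2 fold changes of KO over WT on the mean over times, all with an adjusted p under 0.05, and they stand against 17.4% of all genes higher and 20.1% lower.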

How the data were processed

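The deposited files of the 28 libraries give whole read counts for each gene symbol. TopHat, Bowtie, Cufflinks and the build mm10 are named in the submitters' processing notes, while the counter, its strand setting and its annotation are not given in the sources used here. A second deposited table, named for FPKM, holds CPM: 25 of its 28 columns equal count over library total within 0.001 CPM, in KO with the replicate numbers exchanged, and the other 3 gave whole reads for 100% of values within 0.1 read. Of 43280 features, 27 with date-like names were left out. In the table that lists them, reads with no feature were 27.1 to 33.1% and ambiguous ones 0.680 to 0.785% of the column, and they stayed out of totals. Totals ran from 913055 to 10135820 counts per library, so 3 counts, the limit that a count of 0 allows, correspond to 0.296 to 3.29 CPM, counting error only.

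edgeR 4.0.16 (R 4.3.3) was fitted to all 14 group means with TMM scaling, its default expression filter and robust quasi-likelihood, and p-values were adjusted over 17519 genes at 0.05; the fit was tested on simulated data. Ratios of 12 paralog pairs used 0.5 added to each count and exact permutation. Pseudogene copies came from BLAST 2.17.0 against GENCODE vM21 transcripts. Alternatives were DESeq2 1.42.0, other scalings, no filter, a replicate block, each of the 28 libraries left out, the shallow libraries left out or replaced, and, chosen after seeing the data, the 7 WT replicate 1 libraries left out. Same-numbered WT libraries deviated together (r = 0.258 to 0.517 over 21 pairs), KO libraries did not in all pairs (-0.138 to 0.567 over 21 pairs), nor did KO with WT (-0.129 to 0.043 over 7 pairs). The main fit counts WT libraries of different times as independent, so p-values on the mean over times may be too small. The same holds for exact permutation of genotype within times. Exact permutation of late against early libraries also counts the 2 libraries of a time as independent, so its p-values may be too small. Members, gene lists and tests were chosen with earlier results of these data known. Genes named with full values were members past the threshold in a comparison, up to 10 each way by log2 change with at least 5 CPM, and both genes of a paralog pair whose ratio passed or moved by 1 or more on the log2 scale. From the other lists up to 3 called genes each were to be named by size of change, but more were named from the regulators. Paralogs were also named without regard to a call.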

Additional observations from a re-analysis of the deposited data

Results flagged for a closer look

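The change of Pdk1 at 120 h against 0 h differed between the genotypes: KO minus WT was 1.32 ± 0.28 on the log2 scale (edgeR adjusted p = 0.0484). Pdk1 was at 91.2 and 78.6 CPM at 120 h and 122 and 119 CPM at 0 h in KO, and at 38.1 and 31.0 CPM at 120 h and 107 and 147 CPM at 0 h in WT. The call was lost in 23 of the 28 refits that leave out 1 library, with the value between 1.05 and 1.54.

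Pfkm was the member whose course over all 7 times differed between KO and WT (edgeR adjusted p = 0.0329). At 120 h Pfkm was at 57.6 and 60.2 CPM in KO and 18.4 and 17.8 CPM in WT, and at 48 h it was at 30.0 and 32.0 CPM in KO and 38.4 and 37.1 CPM in WT. This call did not remain in 20 of the 28 refits that leave out 1 library.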

How the results depend on the processing

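Of 123 calls on members and paralog ratios, 56 held with each of the 28 libraries left out in turn and 67 did not, and no call changed sign under any alternative run. Calls of the joint tests over times, which have no single log2 change, are not among the 123. With 1 library left out, the counts of called members ranged from 13 to 19 for the WT course, 6 to 10 for the KO course, 35 to 56 for WT times against 0 h, 6 to 19 for KO times against 0 h, 16 to 24 for KO against WT on the mean over times, 15 to 28 at single times and 0 to 1 for genotype by time. The counts of called ratios ranged from 0 to 2 in WT over time, 1 to 2 in KO over time and 2 to 6 between the genotypes. Where leaving out a library leaves a group with 1 library, that library is assumed to vary like the other groups.

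Without the expression filter, 16 members were called in the KO course, 28 at KO times against 0 h, 46 between the genotypes at single times and 6 for genotype by time. DESeq2 called 22 at KO times against 0 h and 5 for genotype by time. Without the 3 shallow KO libraries, 4 members were called in the KO course, 0 for genotype by time, 0 ratios in KO over time and 3 ratios between the genotypes, and with the recovered reads 51 members were called at single times. With the replicate number as a block, 2 members were called for genotype by time and 0 ratios in KO over time; of the calls it ended those of Eno1 on the mean over times (edgeR adjusted p = 0.0697), Pfkp/Pfkm in KO (exact permutation, adjusted p = 0.06) and Aldoc/Aldoa between the genotypes (exact permutation, adjusted p = 0.0706). It ended no other call, and it added calls of Pfkfb4 in the WT course, 2 at WT times against 0 h (55 in all), 5 at KO times against 0 h (19 in all), 2 between the genotypes at single times (29 in all) and Pfkfb3 for genotype by time. In the edgeR fit the block was a single term shared by KO and WT, whose same-numbered libraries did not deviate together. It therefore cannot fully remove a shift between the WT replicates alone, and calls kept under it do not settle that point. In a fit without the 7 WT replicate 1 libraries, chosen after seeing the data, 30 members were called at WT times against 0 h, 27 at KO times against 0 h and 1 ratio between the genotypes. That fit has fewer libraries, and the causes of the other moves were not tested. In the shallow libraries, Pgk1 (0.927 to 1.94 CPM) and Pgam1 (1.85 to 2.19 CPM) lay under the level of 3 counts, 2.78 to 3.29 CPM.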
